A study of Ictidomys tridecemlineatus with 5 samples.

Results

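Transcripts of the sodium pump and of retinoschisin were examined in ocular RNA of the thirteen-lined ground squirrel, a diurnal hibernating rodent with a cone-rich retina. The set holds 8 protein names: the pump's catalytic alpha subunits AT1A1, AT1A2, AT1A3 and AT1A4, its beta subunits AT1B1, AT1B2 and AT1B3, and retinoschisin, XLRS1. An assembled transcript belonged to a member when its Swiss-Prot hit carried that name. This gave 33 of 61797 annotated transcripts in eye and 86 of 62889 in retina, so 119 in all, and the 8 names stand among 15938 found in either tissue. All but AT1A4 were in both tables, which leaves 7 names to compare. The RNA came from wild-type animals, as 2 eye libraries and 3 retina libraries, and the labels describe library preparations pooled from 4 animals. The labels used here state neither age, sex nor season, nor which structures the eye samples held.

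The sodium pump exports sodium and imports potassium at the cost of ATP. Its alpha subunit binds the ions, ATP and cardiac glycosides, and its beta subunit is needed for the complex to reach the membrane. Photoreceptors, in which sodium enters the outer segment continuously in darkness, depend on pumps in the inner segment membrane, where alpha-3 and beta-2 are the main isoforms described in mouse and rat. Retinoschisin is a secreted discoidin-domain protein made by photoreceptors and bipolar cells. In mouse retina it is held at the cell surface by the pump containing alpha-3 and beta-2, and mutations of its human gene cause X-linked juvenile retinoschisis, a splitting of the retinal layers.

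Each tissue has 1 deposited value per transcript over its libraries, read as RPKM (reads scaled by transcript length and by a read total set for each tissue). There is therefore no replicate error and no test, and no p-value is given. A member's level is the RPKM of its highest transcript. A difference is log2(eye RPKM + 1) minus log2(retina RPKM + 1), which understates the difference of low genes, and a 2-fold difference on that scale is called. The highest transcripts of the members carried between 5734 and 298694 recovered reads in eye and between 309 and 368840 in retina. The 95% counting intervals of the 7 differences had half-widths between 0.0069 and 0.038. They assume independent reads and cover counting error only. Retinal markers were present in both tissues: the 14 photoreceptor and bipolar markers summed to 3572 RPKM in eye and 6736 RPKM in retina, and by the highest transcript each was lower in eye. With the longest transcript GNAT2 (1.31), RECO (0.97) and PCP2 (0.30) were higher in eye, as were ARRC (0.26) with the best-matching one and TRPM1 (0.12) and CABP5 (0.35) with sums. Lens markers summed to 6757 RPKM in eye and 30.2 RPKM in retina, corneal epithelial markers to 4517 and 1.96 RPKM, skeletal muscle markers to 1899 and 1187 RPKM, and pigment cell markers to 277 and 10.9 RPKM. Nearly all of the muscle sum in retina came from ACTS (601 RPKM) and KCRM (584 RPKM), on transcripts of 135 and 115 bases. MLRS and TNNI2 were at 1.37 and 1.01 RPKM in retina, and TNNT3 had no transcript there. In such bulk samples fewer cells of a type and less RNA per cell cannot be told apart.

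The pump was abundant in both tissues, and its isoforms did not differ between them in the same way. AT1A2 and AT1B3 were higher in eye, retinoschisin was 3.84-fold higher in retina, AT1A3 and AT1B2 were moderately lower in eye, and AT1A1 and AT1B1 were closest to equal. Of the 7 members in both tables, 2 were at least 2-fold higher in eye, where 11.8% of 13383 proteins passed that mark. In the other direction 1 of 7 stood at least 2-fold higher in retina, a mark that 3.6% of the proteins passed. Counting either direction, 3 of 7 members passed 2-fold, and 15.4% of all proteins did. The median difference was -0.38 over the 7 members and -0.0035 over all 13383 proteins. Scaling both tissues to an equal total lowered the median of all proteins to -0.25 and changed these shares to 9.11% and 6.85%. Relative to that median, the 7 differences kept their sign. Such a scaling shifts all proteins almost alike, so this is no check on the differences. With sums over transcripts the shares were 16.8% and 19.3%.

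**Figure D1:**
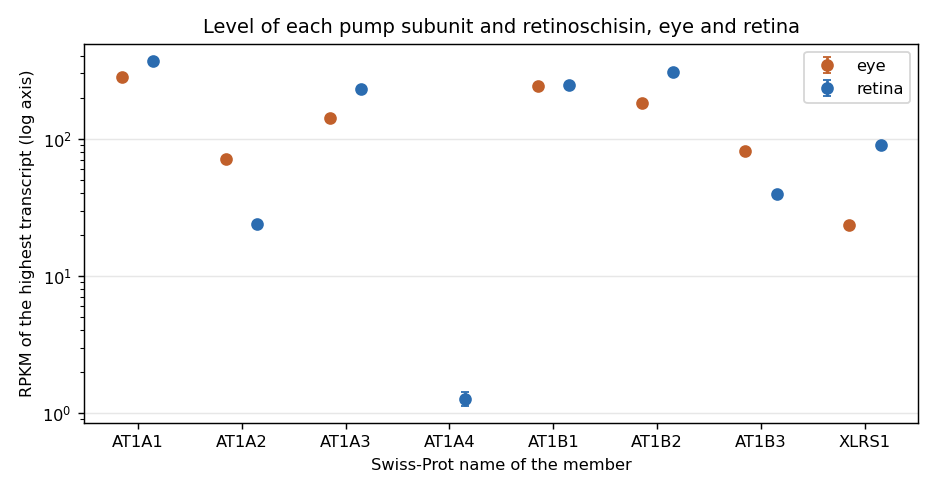
Level of each member as the RPKM of its highest transcript (log axis) in eye (left, orange) and retina (right, blue); points are the single value per tissue and bars the 95% counting interval, mostly smaller than the point. AT1A2 and AT1B3 stand higher in eye, XLRS1 higher in retina, and AT1A4 has a value of 1.27 RPKM in retina only.

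AT1A1, the alpha subunit found in nearly all cell types, had the highest level of the members in each tissue by the highest transcript, at 281 RPKM in eye and 367 RPKM in retina. With length-weighted means AT1B1 was above it, at 224 RPKM against 219 RPKM in eye and 227 RPKM against 207 RPKM in retina. The difference was -0.38 (counting interval -0.39 to -0.38). It ranked 279th among the names in eye and 160th in retina, which places it in the top 1.83% and 1.1%. The eye value came from a transcript of 4023 bases aligned over 1023 residues, and the retina value from one of 2822 bases aligned over 826 residues. AT1A1 also had the most transcripts, 13 in eye and 31 in retina. In eye 6 of them were under 200 bases, in retina 28. These short pieces held 41.4% of the RPKM summed over its eye transcripts and 91.6% of that sum in retina. The direction of the small AT1A1 difference depended on how the transcripts were combined. With the highest transcript of 200 bases or more it stayed at -0.38. It was 0.086 with the length-weighted mean of the transcripts, 0.86 with the sum of transcripts of 200 bases or more, and -1.94 with the sum of all transcripts.

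AT1A3, the alpha subunit of neurons, was at 141 RPKM in eye and 230 RPKM in retina, a difference of -0.70 (counting interval -0.71 to -0.69). Each tissue had a long transcript aligned over 996 residues with 97% similarity, and retina had a pair of them. The eye transcript had 3608 bases. The retina pair had 3389 bases at 230 RPKM and 3467 bases at 221 RPKM, so that the choice between them hardly moved the difference (-0.65 with the second). AT1A3 lay below AT1A1 in each tissue, at 0.502 times its level in eye and 0.625 times in retina. With sums, AT1A3 was at 0.259 times AT1A1 in eye and 0.199 times in retina, and it differed by -1.56 between the tissues. Pieces under 200 bases held 53.2% of its retina sum and none of its eye sum. With sums of transcripts of 200 bases or more it differed by -0.47. By the highest transcripts, the AT1A3 difference was below that of 6 of the 14 photoreceptor and bipolar markers, which ran from -1.37 to -0.025.

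AT1A2, the alpha subunit of astrocytes, Müller glia and muscle, showed the opposite direction. It was at 71.1 RPKM in eye and 23.9 RPKM in retina, 2.98 times as high in eye, with a difference of 1.54 (counting interval 1.52 to 1.55). Its transcripts were long in each tissue, 3458 bases in eye and 5926 bases in retina, and both aligned over 1020 residues. One short eye transcript of 246 bases stood at 1.31 RPKM. The difference lay between 1.27 and 1.57 under all 14 alternatives tried, and 93.9% of all proteins had a lower difference. With 1 transcript in retina and 2 in eye, the highest, best-matching and longest transcripts were the same. These choices therefore could not change the AT1A2 difference. By the highest transcripts, most of the listed markers of the cells known to carry AT1A2 were also higher in eye. GFAP, an intermediate filament of astrocytes, was at 145 RPKM in eye and 16.9 RPKM in retina, and the 4 of 5 glial markers in both tables, all higher in eye, had a median difference of 0.47. GLNA (0.095) and RLBP1 (0.10) of these 4 were close to equal. With equal totals GLNA (-0.18) and RLBP1 (-0.17) of these 4 were lower in eye, and the median was 0.21. With best-matching transcripts GLNA differed by -0.73 and RLBP1 by -1.94, and the median was 0.05. The glial glutamate transporter EAA1, which is not among these markers, was lower in eye, with a difference of -0.88. It was -1.02 with the best-matching transcript, -1.03 with the longest and -1.51 with sums. Of the 5 skeletal muscle markers, MLRS was at 366 and 1.37 RPKM, TNNI2 at 220 and 1.01 RPKM, and TNNT3, in eye alone, at 151 RPKM. ACTS, on transcripts of 131 and 135 bases, was at 952 and 601 RPKM. KCRM was at 210 RPKM in eye and 584 RPKM in retina, on a retina transcript of 115 bases, but differed by 1.02 with the best-matching and by 0.41 with the longest transcript. ACTS differed by -0.62 with the best-matching transcript. The part of these cells in the AT1A2 value was not tested.

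AT1A4, which in other mammals is the alpha subunit of sperm, was found in the retina table only. Its single transcript had 683 bases and 1.27 RPKM (counting interval 1.13 to 1.42), and it aligned to the human entry over 50 residues with 90% similarity. With so short an alignment between close paralogs, the name is uncertain. No eye transcript was assigned to it, and no difference is given.

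The differences of the beta subunits ran from -0.76 to 1.01. AT1B1, the widespread beta subunit, was at 242 RPKM in eye and 246 RPKM in retina. The difference of -0.021 had a counting interval from -0.050 to 0.0094, which includes 0. The eye value came from a transcript of 2593 bases aligned over 303 residues, while the highest retina transcript had 107 bases. The longest retina transcript, of 1046 bases, stood at 229 RPKM, and with it the difference was 0.081. All 7 retina transcripts of AT1B1 lay between 207 and 246 RPKM, and 6 of them were under 200 bases. With sums the difference was -2.62, and those short pieces made up 85.4% of the retina sum.

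AT1B2, also known as the adhesion molecule on glia and the beta subunit to which retinoschisin binds in mouse, was at 182 RPKM in eye and 309 RPKM in retina. The difference was -0.76 (counting interval -0.79 to -0.73). Here the eye value came from a piece of 172 bases, and the retina value from a transcript of 1611 bases aligned over 306 residues. The longest eye transcript, of 3107 bases, was at 168 RPKM, which gave a difference of -0.87. The 5 eye transcripts of AT1B2 lay between 96.8 and 182 RPKM, and the 25 retina transcripts between 33.5 and 309 RPKM, so the ranges overlap. The median transcript was at 110 RPKM in eye and 204 RPKM in retina. AT1B2 passed 2-fold with equal totals (-1.03), with sums (-2.89) and with sums of transcripts of 200 bases or more (-1.02), and it stayed lower in eye under all 14 alternatives. Pieces under 200 bases, 19 of the 25 in retina, held 80.2% of the retina sum and 27.5% of the eye sum. By the highest transcripts, AT1B2 was below 7 of the 14 retinal markers in its difference.

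AT1B3, a beta subunit of many tissues, was at 81.0 RPKM in eye and 39.7 RPKM in retina, 2.04 times as high in eye. The difference of 1.01 (counting interval 0.99 to 1.03) lay just past the 2-fold mark. All of its transcripts, 5 in eye and 6 in retina, were over 200 bases. The eye transcripts ran from 27.9 to 81.0 RPKM and the retina transcripts from 9.59 to 39.7 RPKM, so the ranges overlap. The highest ones had 1849 and 1795 bases and aligned over 286 and 279 residues. AT1B3 was below the mark with pseudocount 5 (0.94), sums (0.92) and equal totals (0.74). With the longest transcript, which in retina had 2693 bases and 9.59 RPKM, it differed by 2.95.

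**Figure D2:**
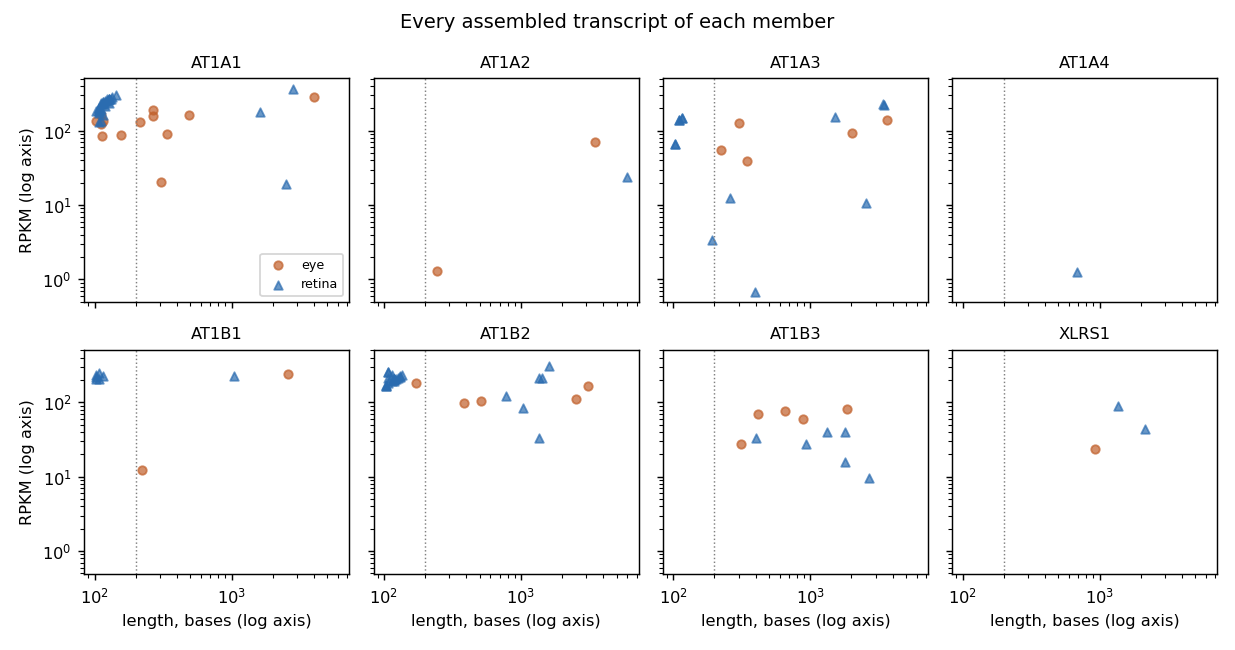
Every transcript of each member by its length in bases and its RPKM (both log axes), eye as circles and retina as triangles; the dotted line marks 200 bases. Retina transcripts of AT1A1, AT1B1 and AT1B2 crowd at the short end, whereas AT1A2, AT1B3 and XLRS1 have no transcript under 200 bases.

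The make-up of the pump by isoform followed from these values. The alpha levels summed to 493 RPKM in eye and 622 RPKM in retina, and the beta levels to 506 and 595 RPKM, so that alpha over beta was 0.975 in eye and 1.05 in retina. With length-weighted means it was 0.930 in eye and 0.886 in retina, and with sums 1.85 in eye and 1.22 in retina, so the order of the tissues depended on the choice. AT1A1 was the first alpha isoform in each tissue, with 57.0% of the alpha sum in eye and 59.0% in retina. AT1A3 made up 28.6% of the alpha sum in eye and 36.9% in retina, and AT1A2 14.4% and 3.84%. With sums of transcripts the AT1A3 share was 19.9% in eye and 16.5% in retina, the other order. Among the beta subunits the first place changed. AT1B1 led in eye with 47.9%, against 41.4% in retina, and AT1B2 led in retina with 52.0%, against 36.0% in eye. AT1B3 held 16.0% of the beta sum in eye and 6.68% in retina. AT1B2 over AT1B1 was 0.752 in eye and 1.26 in retina. With the best-matching or the longest transcript this ratio was 0.694 in eye and 1.35 in retina. It did not cross 1 between the tissues with length-weighted means (0.614 in eye and 0.801 in retina) or with sums (2.60 and 3.14), although it was lower in eye in each case.

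**Figure D3:**
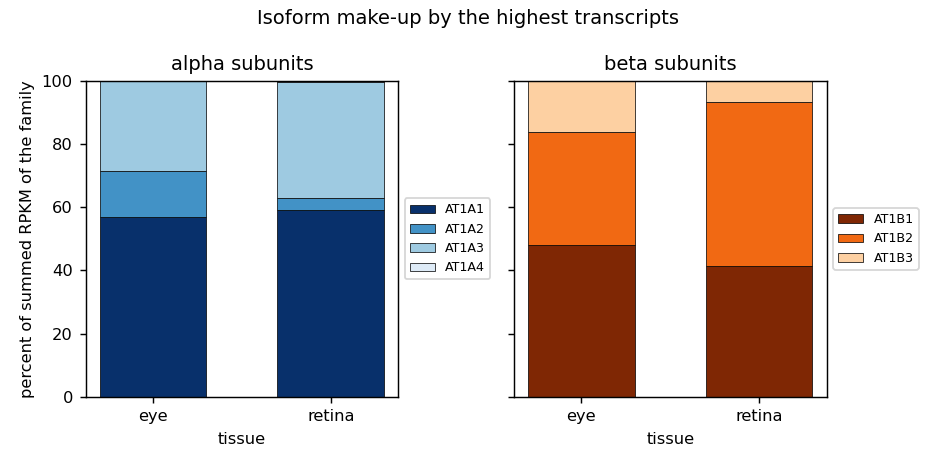
Share of each isoform in the summed RPKM of the alpha (left) and beta (right) subunits, by the highest transcripts, with eye left of retina in each panel. AT1A1 leads the alpha subunits in each tissue, whereas AT1B1 leads the beta subunits in eye (47.9%) and AT1B2 in retina (52.0%); the AT1A4 share of 0.204% in retina is too thin to see.

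By the highest transcripts, the order of the levels in eye was AT1A1, AT1B1, AT1B2, AT1A3, AT1B3, AT1A2 and XLRS1. In retina it was AT1A1, AT1B2, AT1B1, AT1A3, XLRS1, AT1B3, AT1A2 and AT1A4. The closest neighbours were AT1B1 and AT1A3 in retina, 1.07-fold apart, and AT1B3 and AT1A2 in eye, 1.14-fold apart. No counting intervals of neighbours overlapped, but the spread between libraries is unknown, so an order between such close levels is a description of these tables. The order also depended on the transcript choice. With transcripts of 200 bases or more AT1B1 (229.2 RPKM) fell just below AT1A3 (229.6 RPKM) in retina. With sums AT1B2 (662 RPKM), AT1A3 (453 RPKM) and AT1B3 (315 RPKM) stood above AT1B1 (255 RPKM) in eye. With the longest transcripts AT1A2 (23.9 RPKM) stood above AT1B3 (9.59 RPKM) in retina.

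By the highest transcripts, retinoschisin had the largest difference in size of the 7 members; with sums that of AT1B2 and with the longest transcripts that of AT1B3 was larger. XLRS1 was at 23.5 RPKM in eye and 90.1 RPKM in retina, with a difference of -1.90 (counting interval -1.93 to -1.86). Only 1.02% of all proteins had a lower one. Eye had a single transcript, of 925 bases. Retina had 2, of 1371 bases at 90.1 RPKM and of 2152 bases at 44.4 RPKM, so the eye value lay below each of them. All 3 aligned to the human entry over 224 residues, with 93% or 94% similarity. The call was lost with the longest transcript, where the difference was -0.89. The sum was 23.5 RPKM in eye and 134 RPKM in retina, a difference of -2.47. XLRS1 was lower in eye under all 14 alternatives.

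XLRS1 also lay outside the range of the retinal markers: its difference was below those of all 14 photoreceptor and bipolar markers. By the best-matching transcript, by the longest and by sums it was below 10 of the 14 in each case. By the highest transcripts, the pump subunits reported with it differed less. AT1A3 stood 6.01 times above XLRS1 in eye and 2.55 times in retina, and AT1B2 7.77 times in eye and 3.43 times in retina. With the longest transcripts AT1B2 stood 7.17 times above XLRS1 in eye and 6.96 times in retina, and AT1A3 6.01 and 4.98 times. With sums AT1B2 stood 28.2 times above XLRS1 in eye and 36.6 times in retina, and AT1A3 19.3 and 9.95 times.

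**Figure D4:**
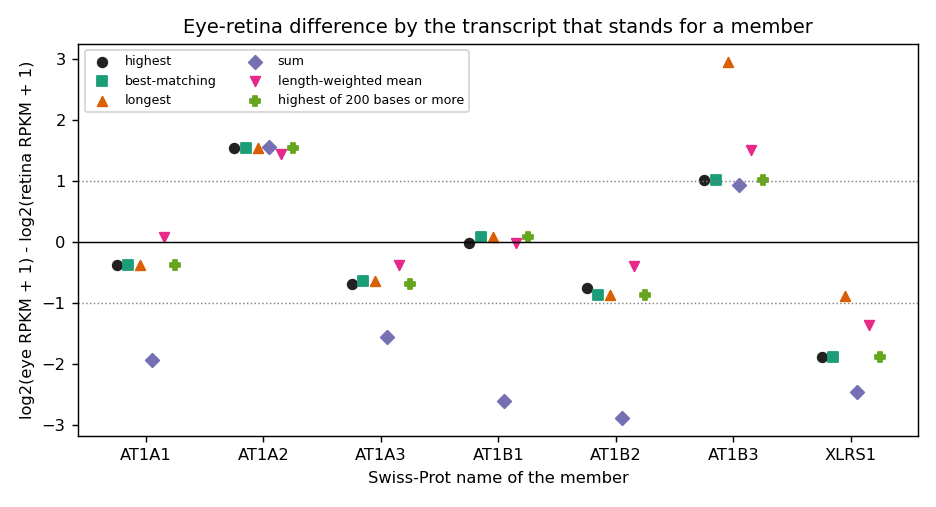
Difference of eye from retina (log2 scale, above 0 is higher in eye) for the 7 members in both tables, by the transcript or mean that stands for a member; dotted lines mark 2-fold. AT1A2, with only 1 transcript in retina and 2 in eye, varies least. XLRS1 stays below 0 throughout, and the sums of AT1A1, AT1B1 and AT1B2 lie far below their other values.

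The gene lists around the pump differed from one another. FXYD proteins are small membrane proteins that bind the pump and set its affinity for ions. Of the 7, 6 were in both tables, with a median of 1.04 (0.61 with sums). Of these 6, 3 passed 2-fold towards eye, against 11.8% of all proteins, and none towards retina, against 3.6%. FXYD3 was at 95.7 RPKM in eye and 15.1 RPKM in retina, FXYD4 at 4.94 and 0.359 RPKM, and FXYD5 at 7.31 and 2.35 RPKM. With sums FXYD5 was below 2-fold (0.66). FXYD6 was at 140 and 81.9 RPKM and FXYD7, described in brain, at 25.6 and 29.6 RPKM. Phospholemman, PLM, was at 84.9 RPKM in eye and 79.0 RPKM in retina, and its difference of 0.10 was 2.69 with the longest transcript, -1.69 with sums and -0.17 with equal totals. ATNG, the gamma subunit known from kidney, had a transcript in eye alone, at 2.99 RPKM.

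The 3 proteins analysed here that have been reported with retinoschisin or its pump complex were lower in eye, none by 2-fold, with a median of -0.61. The potassium channel subunit KCNV2, of photoreceptor inner segments, was at 36.0 RPKM in eye and 68.9 RPKM in retina. The calcium channel CAC1D was at 2.33 and 4.09 RPKM, and caveolin, CAV1, at 46.2 and 54.3 RPKM. KCNV2 depended on the transcript chosen, with -0.92 for the highest, -4.32 for the best-matching and 0.25 for the longest.

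Transporters and channels that use or load the sodium gradient, listed together with the potassium chloride cotransporter S12A5, had a median of -0.32 over 13 of 13 members. Of these, 9 were lower in eye, as were 50.3% of all proteins. The count was 10 with equal totals, 8 with best-matching transcripts, and 7 with the longest transcripts or with sums. The median difference of all proteins also moved, to -0.25 with equal totals, 0.014 with best-matching transcripts, 0.043 with the longest and -0.073 with sums. None passed 2-fold towards eye, against 11.8% of all proteins, and 1 did towards retina, against 3.6%. That one was CNGA3, the cone cyclic nucleotide-gated channel through which sodium enters, at 16.7 RPKM in eye and 45.1 RPKM in retina, though with the longest transcript it differed by 1.15. The glial glutamate transporter EAA1 was at 84.2 and 156 RPKM, and the exchanger NCKX2 at 36.6 and 55.4 RPKM. The potassium chloride cotransporter S12A5 was at 59.6 and 109 RPKM, and it too turned sign with the longest transcript (1.96).

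The pumps related to the sodium pump had 7 of 11 members in both tables, with a median of -0.13 that was 1.11 with sums. Of these, 3 passed 2-fold towards eye, against 11.8% of all proteins, and none towards retina, against 3.6%. AT2A1, the calcium pump of fast skeletal muscle, was at 71.6 RPKM in eye and 0.354 RPKM in retina. AT2A3 was at 4.09 and 0.684 RPKM and the plasma membrane calcium pump AT2B4 at 7.48 and 2.92 RPKM. With equal totals AT2B4 was below 2-fold (0.90). AT2A2, the widespread calcium pump of the endoplasmic reticulum, was at 40.8 and 44.8 RPKM, AT2B1 at 18.5 and 25.4 RPKM, and AT2B2 at 17.1 and 23.9 RPKM. The beta subunit of the gastric proton pump, ATP4B, had a transcript in eye alone, at 0.404 RPKM.

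Anchors and regulators of the pump had a median of -0.042 over 14 of 16 members (-0.28 with equal totals). Of these, 1 passed 2-fold towards eye, against 11.8% of all proteins, and none towards retina, against 3.6%. SIK1, a salt-inducible kinase, was at 9.59 RPKM in eye and 3.13 RPKM in retina. The kinase SGK1, which raises sodium transport in epithelia, was at 151 and 126 RPKM, a difference of 0.26 that was -0.019 with equal totals. The adducin ADDA was at 102 and 84.2 RPKM, and its difference of 0.27 was -0.37 with the longest or best-matching transcript and -0.00030 with equal totals. The spectrins SPTB2 and SPTN1, which link ankyrin-bound pumps to the membrane skeleton, were at 61.3 and 50.2 RPKM and at 40.7 and 64.8 RPKM. The highest SPTN1 transcripts had 489 bases in eye and 422 in retina. The SPTN1 difference of -0.66 was -0.035 with the longest or best-matching transcript and 0.17 with sums.

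**Figure D5:**
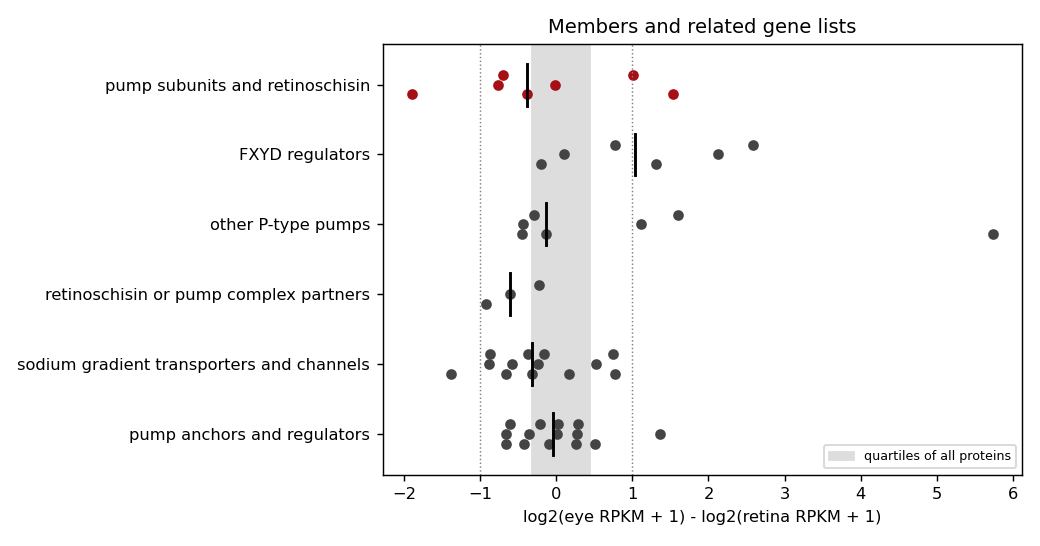
Difference of eye from retina (log2 scale) for the 7 members (red) and for the members of 5 related lists found in both tables (grey); black ticks are medians, the band spans the quartiles of all 13383 proteins, -0.32 to 0.44, and dotted lines mark 2-fold. The FXYD list has its median at 1.04, the partners of retinoschisin or the pump complex at -0.61.

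Markers of secretory and transporting ocular epithelia, in which the pump drives fluid movement, were given by 4 names. S4A11, of the corneal endothelium, was at 23.7 RPKM in eye and 0.791 RPKM in retina. The water channel AQP1 was at 150 and 34.1 RPKM, and MYOC had a level of 105 RPKM in eye and no transcript in the retina table. The carbonic anhydrase CAH2 was at 130 and 216 RPKM. Their part in the levels of AT1A1 and AT1B1 in eye was not tested.

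By the levels in the 2 tissues, the proteins nearest to AT1A3 were the tubulin TBB5 (135 RPKM in eye and 230 in retina), the neuronal membrane glycoprotein GPM6A (148 and 230) and the proton pump subunit VATB2 (148 and 222), at Euclidean distances on the log2 scale of 0.060, 0.070 and 0.088. The nearest to XLRS1 lay farther away. They were CQ10B, a coenzyme Q-binding protein, at 27.4 RPKM in eye and 89.7 RPKM in retina, K1586 at 24.7 and 76.7 RPKM, and TMM19 at 28.7 and 75.2 RPKM. Their distances were 0.21, 0.24 and 0.38. With only 2 values per protein, such likeness is that of a level and a difference.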

How the data were processed

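RNA sequencing covered 2 eye and 3 retina libraries. For each tissue the authors deposited an expression value and a length per transcript and, separately, the Swiss-Prot hit with its percent similarity and bit score, per the file headers. The unit of the deposited values was taken to be RPKM, since value times length was a whole multiple of 1 constant, within 0.01 reads, for 100% of transcripts in each table. The constant stands for a total of 264219334 reads in eye and 355988270 in retina, from which reads were recovered. At 1 RPKM a kilobase of transcript has 264 reads in eye and 356 in retina. Recovered reads summed to 19.2 and 10.5 times these totals, so reads may recur across transcripts, and levels of close paralogs are uncertain. This excess was larger in eye than in retina, and its bearing on the differences between the tissues was not tested. The submitters' processing notes name Bowtie. For the assembler, the counting mode and the search tool, the answer is not given in the sources used here.

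Transcripts were joined by entry name, and the highest transcript stood for a protein if it reached 1 RPKM in either tissue. Python 3.11.15, pandas 2.3.3, numpy 2.4.6 and scipy 1.17.1 were used. The comparison function was checked on simulated data. Alternatives were 4 other ways to stand for a protein, transcripts of 200 bases or more, pseudocounts 0.1 and 5, no filter and one at 10 RPKM, equal-total and median-ratio scaling, E-values of 1e-20 or less, and mammalian hits. A sum over transcripts of 200 bases or more was added after the data were seen. Members, lists and tests were chosen with earlier results of these data known. Named are all members, the up to 4 list members with the highest mean, any past 2-fold, and the 3 nearest proteins to XLRS1 and AT1A3. Named markers are examples of their lists. RefSeq symbols of assembly mIctTri1.hap1 held 6 of the 8 members. Of the planned lists, 1 member is not reported here.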

Additional observations from a re-analysis of the deposited data

How the results depend on the processing

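The 14 alternatives gave 98 member differences, of which 91 kept their sign and 87 their side of the 2-fold mark. No filter, the filter at 10 RPKM and mammalian hits left every member difference unchanged. They raise these counts without testing the members. The exceptions in sign were AT1A1 with length-weighted means (0.086) and sums of transcripts of 200 bases or more (0.86), and AT1B1, which was 0.081 with best-matching, longest or 200-base transcripts and with strict E-values, and 0.15 with those sums. The count of 2 members at least 2-fold higher in eye became 1 with sums, with sums of 200 bases or more, with pseudocount 5 and with equal totals, and AT1B3 was the one lost each time. The shares of all proteins past that mark were then 16.8%, 16.6%, 6.09% and 9.11%, against 11.8% before. In retina the count of 1 became 0 with the longest transcript, 5 with sums, 2 with sums of 200 bases or more and 2 with equal totals. The shares of all proteins in that direction were then 2.88%, 19.3%, 18.9% and 6.85%, against 3.6% before. Ranges over alternatives were -1.94 to 0.86 for AT1A1, 1.27 to 1.57 for AT1A2, -1.56 to -0.38 for AT1A3, -2.62 to 0.15 for AT1B1, -2.89 to -0.40 for AT1B2, 0.74 to 2.95 for AT1B3 and -2.47 to -0.89 for XLRS1. List medians ran from 0.44 to 1.72 for FXYD proteins, -0.40 to 1.11 for related pumps, -1.16 to -0.23 for retinoschisin partners, -0.76 to -0.14 for sodium gradient genes and -0.28 to 0.12 for anchors. The proteins at least 2-fold higher in eye numbered 1577, but 815 with pseudocount 5. Those higher in retina numbered 482, but 2637 with sums, 2564 with sums of 200 bases or more, 272 with length-weighted means, 265 with pseudocount 5 and 922 with equal totals. The causes were not tested. No paired analysis was possible because each table holds 1 value per transcript and no column per library, and for that reason leaving out a library was not run either. The spread between libraries is unknown.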

Other observations

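Some short retina transcripts matched pump entries outside the 8 names. Of these, 4 with the hydra entry AT1A lay between 117 and 134 RPKM at 107 to 115 bases, and 4 with the fruit fly entry ATNA between 118 and 142 RPKM at 103 to 119 bases. No eye transcript carried either name. Their levels lay within the range of the retina transcripts of AT1A1 (19.2 to 367 RPKM) and of AT1A3 (0.672 to 230 RPKM), and which squirrel gene they came from was not tested. Proteins that interact with AT1B1 were low in both tissues: NKAI1 was at 3.71 RPKM in eye and 3.68 RPKM in retina, NKAI2 at 1.56 and 1.51 RPKM, and NKAI3 at 1.21 and 2.48 RPKM.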
